A study of Mus musculus with 7 samples.

Results

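The cytosolic ribosomal protein genes encode the proteins of the ribosome that works in the cytoplasm, as opposed to the separate ribosome of the mitochondrion. They were taken from the count tables by symbol: every symbol made of Rpl, Rps or Rplp, a number and at most a short suffix, plus Rpsa. This gave 84 of the 32531 symbols in the tables, 51 of the large subunit and 33 of the small subunit. The group includes 7 genes whose suffix l or l1 marks a copy of another member (Rpl3l, Rpl7l1, Rpl10l, Rpl22l1, Rpl39l, Rps27l and Rps4l). Members of the ribosome that go by other names, such as Fau, are not among the 84.

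The mice were adults of the line Dcdc2a-TRAP ES2575, and the tissue around their brain ventricles was used. They carry an EGFP/Rpl10a transgene under the control of Dcdc2a. In this line, EGFP is fused to Rpl10a, a protein of the large subunit, so that ribosomes of the cells using the transgene can be pulled from a homogenate with antibodies to EGFP. The stated target is the ependymal cell, the ciliated cell that lines the ventricles. The labels give 3 libraries of RNA from the immunopurified polysomes (IP 1, 3 and 4) and 4 libraries of RNA from the homogenate (Input 1 to 4). All 7 come from the same transgenic line, and no library of a mouse without the transgene was analysed here. IP and Input libraries with the same number were run on the same lane. Nothing in the labels says that the libraries of a group come from separate animals, so p-values measure only the spread between these samples.

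A ribosome holds 1 copy of nearly every ribosomal protein, and cells keep the supply of these proteins balanced. Their messages are short and abundant in most cells. Many begin with a run of pyrimidines at the very start of the transcript, a TOP motif, through which mTOR signalling and the protein LARP1 control how much of the message is on ribosomes. The share of such a message on polysomes therefore depends on the state of the cell. The genome also holds many processed pseudogenes copied from these messages, so a short read from a ribosomal protein message often aligns to several places.

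The libraries held between 37203427 (Input 3) and 52175180 (IP 1) counts in genes. Levels are in CPM, counts scaled to a common library total, and a count of 3 stands for 0.0575 to 0.0806 CPM. The ciliogenesis factor Foxj1 was at 32.2, 345 and 427 CPM in IP 1, 3 and 4 and at 4.34 to 13 CPM in Input. All 10 ependymal markers were called higher in IP (5 with the replicate number as a block, none by limma voom), and their summed level was 183, 2692 and 2185 CPM in IP 1, 3 and 4 against 20.2 to 44.0 CPM in Input. Dcdc2a itself was at 43.6, 411 and 175 CPM in the IP libraries and at 27.7 to 73.9 CPM in Input (edgeR adjusted p = 0.0743). IP 1 thus stood apart from IP 3 and IP 4, and counts of calls are given also without it where they change. Of the 8 mural and fibroblast markers 6 were called higher in IP (1 with the block and 8 without IP 1), with sums of 95.5, 1298 and 629 CPM against 36 to 84.6 CPM. Of the 8 astrocyte markers 2 were called higher (0 with the block; 5 higher and 1 lower without IP 1), with a median log2 fold of 0.65 and sums of 2090, 2593 and 3030 CPM against 2855 to 3076 CPM. Of the 8 neuronal markers none was called by edgeR (3 lower at an unadjusted p under 0.05; none called by DESeq2 or limma voom; 3 called lower without IP 1), and their sum was 7436 to 9049 CPM in IP and 10090 to 12923 CPM in Input. Of the 8 oligodendrocyte markers 2 were called lower (0 with the block and 3 without IP 1), with sums of 2693 to 4403 CPM in IP and 4306 to 5899 CPM in Input. None of the marker genes of these lists was at 0 in any library. Over all tested genes edgeR called 3.64% higher and 2.16% lower. With the block these shares were 0.553% and 0.190%, and without IP 1 they were 12.5% and 9.55%. At an unadjusted p under 0.05, 9.40% of all genes were lower. DESeq2 called 8.03% higher and 5.54% lower, and limma voom 0.432% and 1.09%.

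As a group, the ribosomal protein genes were lower in the IP than in the Input libraries. Their summed level was 1405, 2638 and 2056 CPM in IP 1, 3 and 4. In Input 1 to 4 it was 3026, 2923, 3231 and 3139 CPM. Every IP library lay below every Input library, and the IP libraries were the more scattered, at 2033 ± 617 CPM (SD, n = 3) against 3080 ± 134 CPM (SD, n = 4). The log2 ratio of these means was -0.60, and -0.39 without IP 1. The members took 0.135% to 0.318% of the counts in genes, in tables that left out every read with several alignments. Rpl4, Rps3 and Rps15a together made up between 25.6% and 39.7% of the sum in each library. Without these 3 genes the sum was 876, 1828 and 1529 CPM in IP 1, 3 and 4. In Input 1 to 4 it was then 1853, 1763, 2172 and 2255 CPM, so that IP 3 lay above Input 2 and the groups overlapped. In these bulk libraries fewer cells of a type and less RNA per cell cannot be told apart, and the part of the marker genes above in the members' values was not tested.

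**Figure D1:**
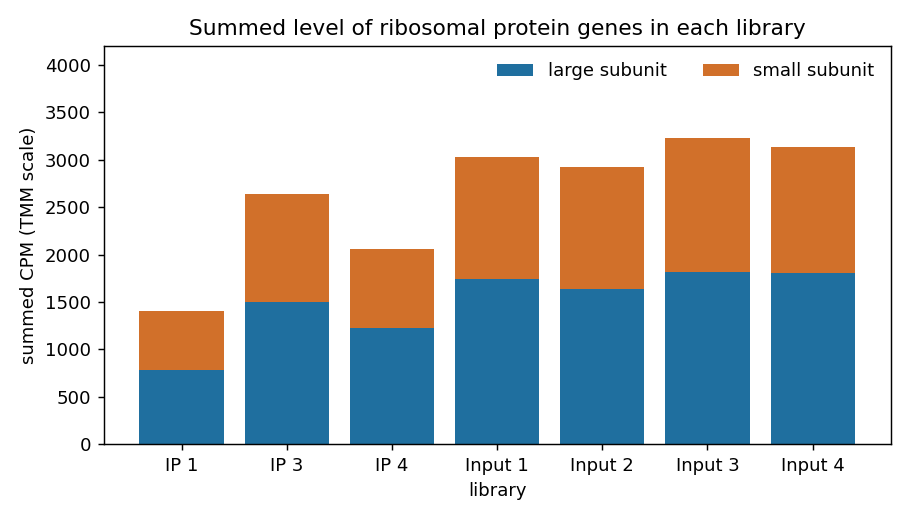
Bars show the summed level of the 84 ribosomal protein genes in each library, in CPM on the TMM scale (a scaling of library sizes), with the large-subunit genes in blue and the small-subunit genes in orange. The IP bars reach 1405, 2638 and 2056 CPM, all below the Input bars of 2923 to 3231 CPM.

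Gene by gene, 81 members had enough counts for the test. None was called higher and 3 were called lower in IP: Rps15a, Rplp1 and Rpl4. A call means an adjusted p under 0.05 in edgeR's quasi-likelihood test over all 17375 genes tested. Over all these genes 2.16% were called lower and 3.64% higher, so the 3.70% of members called lower is a share near the background. At an unadjusted p under 0.05, 20 members were lower and 1 was higher, where 9.40% and 13.3% of all genes were. DESeq2 called 13 members lower and 1 higher (5.54% and 8.03% of all genes), and limma voom 1 lower and none higher (1.09% and 0.432% of all genes). An edgeR fit with an offset for the length of a gene's merged exons and the GC content of its longest transcript covered 15662 genes. It called 14 members lower and 1 higher (4.09% and 4.04% of these genes). With this offset and the replicate block together 4 members were called lower and none higher (0.894% and 1.26% of these genes).

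The direction was shared more widely than the calls. The log2 fold of IP over Input was negative in 71 of the 81 members, while 46.9% of all tested genes had a negative and 53.1% a positive fold. The median over members was -0.54, a fold of 0.690, against 0.06 over all genes. In 23 members (28.4%) every IP library was below every Input library, against 10.4% of all genes. In 1 member, Rpl24, every IP library was above every Input library, against 9.55% of all genes. With the replicate number as a block the median was -0.71 and no member was called (0.190% of all genes were called lower and 0.553% higher). In that fit Input 2, which has no IP partner, does not bear on the fold. Without IP 1 the median was -0.48, with 8 members called lower and 2 higher against 9.55% and 12.5% of all genes. Without IP 3, 8 members were called lower and none higher, against 1.98% and 1.91% of all genes.

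**Figure D2:**
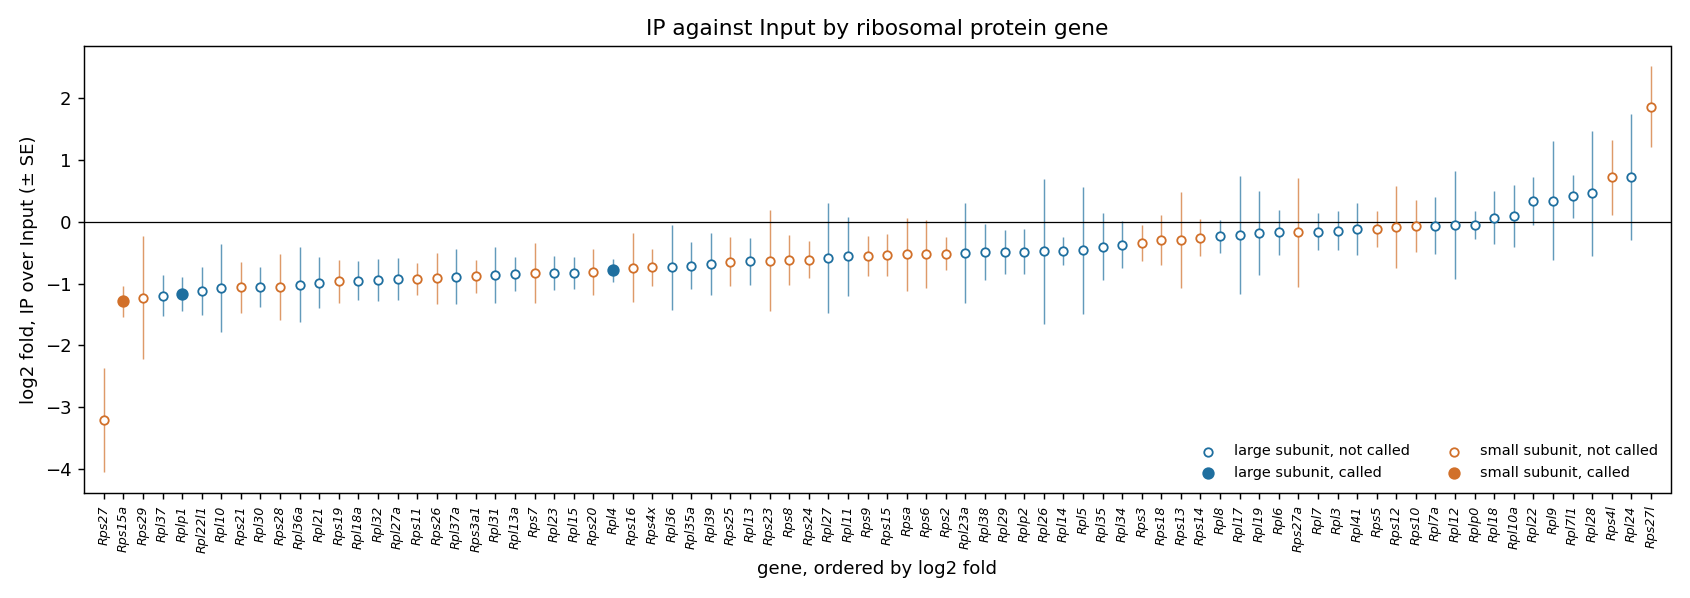
Each point is the log2 fold of IP over Input of a tested member, ordered from low to high, with its standard error as a bar. Blue marks the large and orange the small subunit, and filled points are the 3 called genes. Most points lie below 0, with Rps27 at -3.21 and Rps27l at 1.87 at the ends.

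The members were also read by their level in Input, which is part of the fold itself, so all genes of the same level are given beside them. Of the 38 members with a mean Input level of at least 20 CPM, 37 had a negative fold, the median was -0.73 and in 17 (44.7%) every IP library was below every Input library. Of all genes at that level 51.6% had a negative fold, the median was -0.02 and 15.6% had every IP library below every Input library. The 19 members between 5 and 20 CPM had a median of -0.37 (all genes 0.14), and the 24 members under 5 CPM a median of -0.43 (all genes 0.22). All 3 called genes were in the highest class, as were 327 of the 376 genes called lower over all tested genes. In that class 7.89% of the members and 4.38% of all genes were called lower.

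The sequence around the start of the message is shown for some of the named members, since this is where a TOP motif lies. Each window holds 30 bases of the RefSeq promoter table (GRCm38.p6), 15 before and 15 from the annotated start, in the direction of transcription. Runs of at least 8 bases that are only C or T are in capitals. Rps15a (chr7:118116133-118116162, minus strand) and Rpl4 (chr9:64173372-64173401, plus strand) are called genes. Rps27 (chr3:90213634-90213663, minus strand) and Rpl22l1 (chr3:28805493-28805522, plus strand) had every IP library below every Input library, and Rplp2 (chr7:141447636-141447665, plus strand) is the partner of Rplp1. Rplp0 (chr5:115559452-115559481, plus strand) and Rpl22 (chr4:152325711-152325740, plus strand) hold no such run. Rplp1, the remaining called gene, had no matching entry. Members not shown include Rpl37 (log2 fold -1.19), which held no run. Rps27l (log2 fold 1.87) and Rpl28 (log2 fold 0.46), also not shown, held a run at an annotated start.
Rps15a: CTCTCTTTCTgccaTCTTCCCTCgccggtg
Rpl4: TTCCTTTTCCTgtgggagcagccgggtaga
Rps27: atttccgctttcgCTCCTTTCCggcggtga
Rpl22l1: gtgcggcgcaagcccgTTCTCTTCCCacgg
Rplp2: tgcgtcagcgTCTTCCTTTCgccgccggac
Rplp0: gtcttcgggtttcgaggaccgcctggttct
Rpl22: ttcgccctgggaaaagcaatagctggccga

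Of the 63 members with an entry, 27 (42.9%) held such a run at 1 or more annotated starts, against 13.9% of all genes in the table. The search was on the transcribed strand only, and an annotated start can lie some bases from the start used in this tissue. The 27 tested members with a run had a median log2 fold of -0.55 and the 33 tested members without had -0.54, so the medians of the 2 sets lay close together. A match did not require the run to begin at the annotated start, and the run of Rpl4 lies wholly before it. The split therefore does not separate messages with a TOP motif from those without. No match says only that these letters are not in the window.

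The large subunit's stalk is a flexible arm that recruits the translation elongation factors. It is built from Rplp0, which anchors it to the ribosome, and the small acidic proteins Rplp1 and Rplp2. Rplp1 (ENSMUSG00000007892.8, chr9:61913284-61914542) was at 27.8, 36.7 and 39.3 CPM in IP 1, 3 and 4 and at 64.1, 57.0, 79.8 and 110.4 CPM in Input 1 to 4. Every IP library lay below every Input library, and the log2 fold was -1.17 ± 0.28 (SE; edgeR adjusted p = 0.0389). With the replicate block the adjusted p of Rplp1 was 0.0860. Rplp1 was also not called with limma voom (adjusted p = 0.0723) or without IP 3 (edgeR adjusted p = 0.0623). The call was lost as well without IP 4 and with any 1 Input library left out. Of its transcript's 50-base stretches 60.0% also occur in transcripts of another gene, so part of its reads may not have been counted.

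Its partners did not pass the test. Rplp2 was at 23.2, 71.4 and 57.0 CPM in IP and 64.2, 55.8, 66.9 and 95.5 CPM in Input, with IP 1 far below the other 6 libraries and the groups overlapping. Its log2 fold was -0.48 ± 0.36 (edgeR adjusted p = 0.481), -0.14 without IP 1 and -0.82 without IP 3. Rplp0 was at 29.1, 40.9 and 35.9 CPM in IP and 34.2, 38.9, 35.9 and 37.1 CPM in Input. Its groups overlapped almost wholly, at a log2 fold of -0.05 ± 0.23 (edgeR adjusted p = 0.928), which became 0.00348 with scaling by total counts and 0.0704 without IP 1. The difference between the folds of Rplp1 and Rplp0 was not tested.

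Rpl10a, the protein that carries the tag, sits on the large subunit beside the path of the transfer RNAs. Its level was 4.85, 4.41 and 7.37 CPM in IP 1, 3 and 4 and 4.12, 3.42, 4.91 and 8.40 CPM in Input 1 to 4. The groups overlapped, and the highest value of each group was in the library numbered 4. The log2 fold was 0.09 ± 0.50 (edgeR adjusted p = 0.943), with a sign that changed between settings. Messages of the transgene and of the native gene share the coding sequence and cannot be told apart in these tables. Rpl10a (ENSMUSG00000037805.15, chr17:28328471-28331033) shares 88.1% of its 50-base stretches with other genes and overlaps exons of CT025652.2 on the other strand, so its counts are uncertain.

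Rpl4, whose extended loop lines the tunnel through which the new protein leaves, had the highest counted level per length of transcript, at 371 ± 36.3 CPM per kb in Input (SD, n = 4). Rpl4 (ENSMUSG00000032399.8, chr9:64173375-64178666) was at 273, 389 and 328 CPM in IP and at 638, 577, 562 and 502 CPM in Input. The groups did not overlap and their spread was small, at 330.1 ± 58.0 CPM against 569.9 ± 55.8 CPM. The log2 fold was -0.79 ± 0.19 (edgeR adjusted p = 0.0392). The adjusted p of Rpl4 was 0.182 with the replicate block and 0.00547 without IP 1. Rpl4 was also not called with scaling by total counts (edgeR adjusted p = 0.0653) or with limma voom (adjusted p = 0.0542). The call was lost as well without IP 4 and with any 1 Input library left out. Exons of Rpl4 overlap the small nucleolar RNA gene Snord16a and the model Gm22455 on the same strand.

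Rpl8, which lies close to the site of peptide bond formation, was at 56.2, 114 and 110.5 CPM in IP and at 118, 124, 112 and 85.1 CPM in Input. IP 1 was the lowest library, and IP 3 and IP 4 lay within the Input range. The log2 fold of Rpl8 was -0.23 ± 0.27 (edgeR adjusted p = 0.677), and 0.0295 without IP 1. Rpl37, a zinc-binding protein of the large subunit, was at 9.73, 19.6 and 11.4 CPM in IP and 29.1, 23.9, 32.6 and 38.7 CPM in Input. Its groups did not overlap, and the log2 fold of -1.19 ± 0.33 came close to the threshold (edgeR adjusted p = 0.0634). It passed without IP 1 (adjusted p = 0.0359), without IP 3, with DESeq2 and with the length and GC offset. It did not pass with limma voom (adjusted p = 0.0829), with the replicate block (adjusted p = 0.148) or without IP 4 (adjusted p = 0.197).

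The large-subunit members with the highest positive folds were counted thinly. Rpl24, which helps to bridge the subunits, was at 0.621, 0.881 and 0.644 CPM in IP and 0.564, 0.201, 0.519 and 0.442 CPM in Input. The groups did not overlap, but the log2 fold of 0.73 ± 1.03 was smaller than its error (edgeR adjusted p = 0.740). Rpl28 was at 0.420, 0.969 and 0.80 CPM in IP and 0.638, 0.559, 0.300 and 0.614 CPM in Input. The groups overlapped, and the fold was 0.46 ± 1.01 on the log2 scale (edgeR adjusted p = 0.842). Exons of Rpl24 overlap the model Gm28037 on the same strand, and those of Rpl28 overlap Ube2s on the other strand. Of Rpl24's 50-base stretches 81.7% occur in another gene.

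In the small subunit, Rps15a had the lowest p of all members. It is a protein of the subunit's central part that binds the ribosomal RNA early in assembly. Rps15a (ENSMUSG00000008683.16, chr7:118104372-118116188) was at 100.2, 145 and 81.5 CPM in IP 1, 3 and 4 and at 287, 324, 242 and 211 CPM in Input 1 to 4. The highest IP library lay well below the lowest Input library. The log2 fold was -1.29 ± 0.25 (edgeR adjusted p = 0.0219), and the adjusted p of Rps15a was 0.0911 with the replicate block and 0.00168 without IP 1. Rps15a was also not called without IP 4 or with any 1 Input library left out. Only 6.28% of its 50-base stretches occur in another gene, but its main transcript in the annotation is a long model of 5179 bases.

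Rps3, which shapes the channel where the message enters, was at 156, 276 and 118 CPM in IP and 248, 259, 255 and 171 CPM in Input. IP 3 was the highest library of all and IP 4 the lowest, so that the groups overlapped, and the log2 fold was -0.35 ± 0.29 (edgeR adjusted p = 0.534). It was -0.78 without IP 3 and -0.11 without IP 4. Rpsa, also known as the laminin receptor, was at 4.55, 3.15 and 1.40 CPM in IP and 5.74, 4.11, 4.12 and 3.49 CPM in Input. Its groups overlapped through IP 1, at a log2 fold of -0.53 ± 0.59 (edgeR adjusted p = 0.666), -0.94 without IP 1 and -0.18 without IP 4. Exons of Rps3 overlap Snord15b and those of Rpsa overlap Gm24044, each on the same strand.

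Rps29, a small zinc-binding protein of the subunit's head, was at 0.160, 0.793 and 0.683 CPM in IP and 1.08, 1.16, 1.28 and 1.60 CPM in Input. The groups did not overlap, yet the log2 fold of -1.23 ± 0.99 was close to its error (edgeR adjusted p = 0.519), and it was -0.79 without IP 1.

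Rps27 and its copy Rps27l had the lowest and the highest fold of all members. Both encode zinc-binding proteins of the small subunit that can stand in for each other, and Rps27l is known as a target of p53. Rps27 (ENSMUSG00000090733.6, chr3:90212522-90213651, minus strand) was at 0.300, 0.286 and 0.312 CPM in IP, from 15, 13 and 16 counts, and at 2.67, 2.97, 1.86 and 3.68 CPM in Input. The groups were far apart, at a log2 fold of -3.21 ± 0.85, which missed the threshold (edgeR adjusted p = 0.0541). It passed with DESeq2 (adjusted p = 0.000105) and without IP 1 (adjusted p = 0.0396), but not with the replicate block (adjusted p = 0.221). Of its 50-base stretches 98.6% occur in another gene, so its value is uncertain.

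Rps27l (ENSMUSG00000036781.13, chr9:66946086-66949516, plus strand) was at 6.47, 43.1 and 26 CPM in IP 1, 3 and 4 and at 4.12, 2.68, 8.93 and 11.9 CPM in Input 1 to 4. IP 3 and IP 4 lay above every Input library and IP 1 within the Input range. The log2 fold was 1.87 ± 0.65 (edgeR adjusted p = 0.125). Without IP 1 it was 2.32 and passed (adjusted p = 0.00347), as it did with DESeq2 (adjusted p = 0.0326). It did not pass with limma voom (adjusted p = 0.255), with the replicate block (1.35, adjusted p = 0.217) or without IP 3 (1.23, adjusted p = 0.334). The libraries in which Rps27l was high were also those in which the ependymal markers were high, and whether the 2 are linked was not tested.

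The coding sequences of this pair are shown because their difference decides which reads can be told apart. They come from the GENCODE M21 annotation (GRCm38), without the stop codon, and bases that differ between them at the same position are in capitals. Each is 252 bases long, and 192 bases (76.2%) are identical.
Rps27: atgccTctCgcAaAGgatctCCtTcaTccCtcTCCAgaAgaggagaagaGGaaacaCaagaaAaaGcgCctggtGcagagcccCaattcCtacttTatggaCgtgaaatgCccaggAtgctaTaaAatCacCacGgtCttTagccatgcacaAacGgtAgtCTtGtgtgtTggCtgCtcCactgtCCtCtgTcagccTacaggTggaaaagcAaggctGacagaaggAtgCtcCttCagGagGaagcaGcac
Rps27l: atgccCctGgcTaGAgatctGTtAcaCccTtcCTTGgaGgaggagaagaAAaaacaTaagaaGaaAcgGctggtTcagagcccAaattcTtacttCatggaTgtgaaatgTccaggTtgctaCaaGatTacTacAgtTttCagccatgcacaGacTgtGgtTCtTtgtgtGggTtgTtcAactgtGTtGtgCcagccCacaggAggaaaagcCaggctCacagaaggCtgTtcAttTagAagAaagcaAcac
The 60 differing bases are spread along the whole length. Reads of the pair can thus be told apart over most of the coding sequence, and 22.4% of the 50-base stretches of Rps27l occur in another gene. Rps27 shares its stretches with 8 annotated pseudogenes.

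Rpl22 and Rpl22l1 are another such pair, and loss of the first is known to raise the second. Rpl22l1 was at 6.29, 15.1 and 9.77 CPM in IP and at 17.4, 16.2, 26.4 and 30.3 CPM in Input, with no overlap. The log2 fold was -1.12 ± 0.39 (edgeR adjusted p = 0.125), which passed with DESeq2 (adjusted p = 0.0460). Rpl22l1 did not pass with limma voom (adjusted p = 0.146) or with the replicate block (adjusted p = 0.167). Rpl22, named here after its values were seen, was at 33.5, 136 and 108 CPM in IP and 58.8, 89.9, 74.8 and 70.4 CPM in Input. IP 3 and IP 4 were above and IP 1 below every Input library, at a log2 fold of 0.33 ± 0.39 (edgeR adjusted p = 0.682). Without IP 1 it was 0.73 and passed (edgeR adjusted p = 0.0160). In that setting 12.5% of all genes were called higher, and Rpl22 passed in no other setting.

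Per length of transcript, the ratio of Rpl22 to Rpl22l1 was 1.43, 2.42 and 2.98 in IP 1, 3 and 4 and 0.910, 1.49, 0.763 and 0.626 in Input 1 to 4. The highest Input ratio, that of Input 2, was above the lowest IP ratio, that of IP 1. The coding sequences of this pair are 66.9% identical, and exons of Rpl22l1 overlap the model Gm33051 on the other strand. The difference between the 2 folds was not tested.

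**Figure D3:**
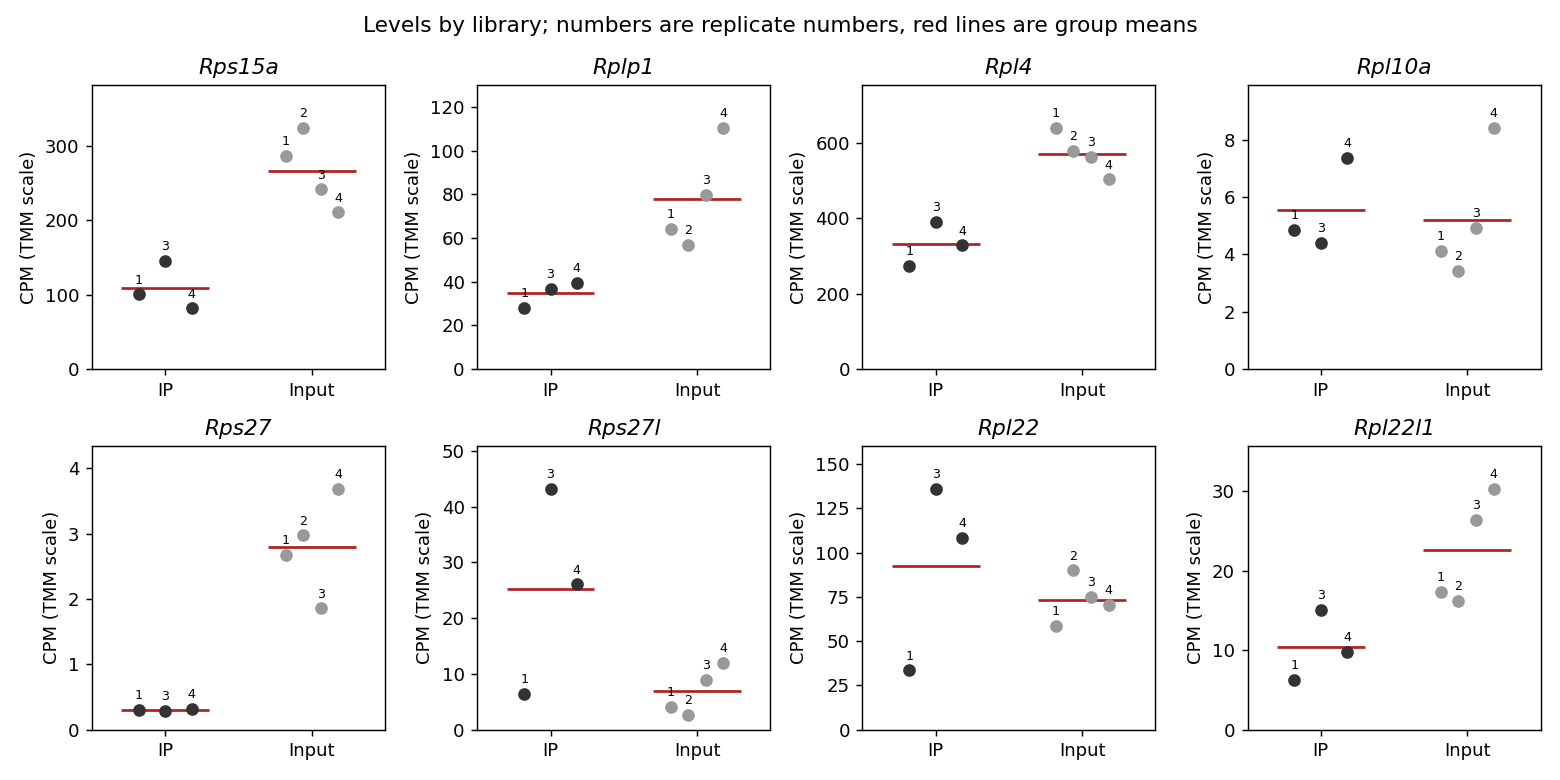
Each panel shows 1 gene, with its level in CPM (TMM scale, linear axis from 0) in each IP library (black) and each Input library (grey), numbered by replicate, and red lines at the group means. Rps15a, Rplp1, Rpl4, Rps27 and Rpl22l1 show IP wholly below Input, Rpl10a shows overlap, and for Rps27l and Rpl22 IP 1 sits apart from IP 3 and IP 4.

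None of the other copies was called. Rpl7l1 was at 12.6, 32.2 and 23.8 CPM in IP and 13.4, 17.3, 17.6 and 20.2 CPM in Input, overlapping, at a log2 fold of 0.42 ± 0.35 (edgeR adjusted p = 0.537), 0.70 without IP 1 and 0.08 without IP 3. Rps4l, which the annotation holds as a transcribed processed pseudogene, was at 4.75, 6.41 and 8.91 CPM in IP and 2.62, 8.67, 3.0 and 1.94 CPM in Input. Input 2 stood far above the other Input libraries, and the log2 fold was 0.72 ± 0.61 (edgeR adjusted p = 0.540), and 1.40 without Input 2. Rpl10l, a copy of Rpl10 known from the testis, had 0 counts in every library, which allows up to 0.0806 CPM. Rpl39l was found only in Input 1, at 0.123 CPM from 5 counts, and Rpl3l, a copy known from muscle, reached at most 0.179 CPM, in Input 2. These 3 were not tested.

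The IP libraries differed among themselves more than the Input libraries did. Set against the mean of Input, the median member had a log2 ratio of -0.96, -0.24 and -0.56 in IP 1, 3 and 4. Against the Input library of the same number and lane it was -0.90, -0.38 and -0.75, with 66, 62 and 67 of the 81 members below. IP 1 was the lowest of the IP libraries in 58 members and IP 3 the highest in 52. Of the counted records, among which no unaligned reads are listed, 19.8%, 29.6% and 39.3% in IP 1, 3 and 4 aligned to more than 1 place. In Input these were 20.9% to 21.2%. Records that fell in no gene were 18.4%, 8.85% and 8.15% in IP 1, 3 and 4 and 15.2% to 18.2% in Input. Reads in more than 1 gene, which were not counted, were 1.91%, 2.01% and 1.51% in IP 1, 3 and 4. In Input they were 9.33% to 12.9%. The part of these shares in the members' values was not tested.

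A minority of members went the other way. IP 1 was the highest IP library for 13 members, among them Rpl9, Rps12, Rpl5, Rpl17 and Rpl12. Rpl9 was at 5.51, 0.903 and 0.410 CPM in IP 1, 3 and 4 and at 0.956 to 2.73 CPM in Input. Rps12 was at 7.19, 2.89 and 1.54 CPM in IP and at 2.72 to 6.55 CPM in Input. These 13 genes had a median Input level of 2.81 CPM and a median of 80.7% of 50-base stretches found in another gene. For the 52 members highest in IP 3, the medians were 26 CPM and 39.3%.

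**Figure D4:**
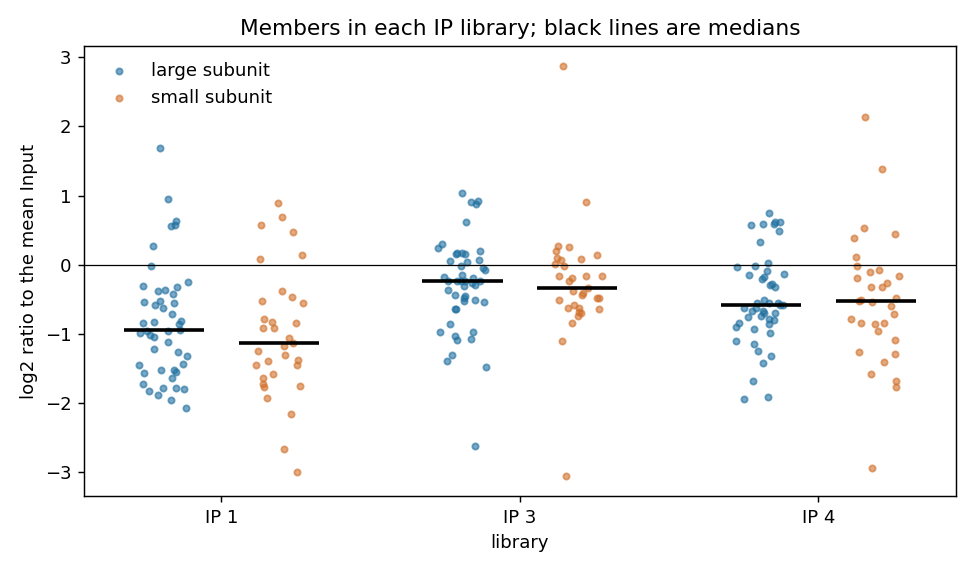
Points are the 81 tested members in each IP library, as the log2 ratio to the mean Input (log2 CPM with a prior count of 2), with large-subunit genes in blue, small-subunit genes in orange and black lines at the medians. The clouds sit lowest in IP 1, whose median over both subunits is -0.96, and nearest 0 in IP 3, at -0.24.

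Sequence shared with other genes marked this group. A median of 48.5% of the 50-base stretches of a member's main transcript occurred in transcripts of another gene (range 0% to 98.6%), where the median over all tested genes was 0% and 2.58% of those genes reached 50%. Of the 84 members, 81 shared such a stretch with an annotated pseudogene. The median number of pseudogenes was 8, and Rpl7a had the most, 119. The main transcripts were short, with a median of 834 bases against 2931 bases for all tested genes. In addition, exons of 38 members overlap those of another gene model, and as the strand setting of the counting is unknown, their counts are uncertain.

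Members that share more sequence had lower counted levels. The 42 tested members under 50% shared had a median Input level of 36.4 CPM per kb and the 39 others 9.15 CPM per kb. Across the 81 tested members Spearman's rho of level per kb and shared percentage was -0.43, a description only, since the members share the same 7 libraries. Rpl4, Rpl41, Rps15, Rplp1 and Rps21 were the highest per kb, between 151 and 371 CPM per kb. Rpl28, Rpl26, Rpl24 and Rpl5 were the lowest, between 0.477 and 0.727 CPM per kb. Whether the shared sequence lowered the counts was not tested.

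The difference between IP and Input was present at both ends of this range. The median log2 fold was -0.62 in the 42 tested members under 50% shared and -0.50 in the 39 at or above it. Every IP library was below every Input library in 12 and 11 of them. Across the 81 members rho of the fold was 0.14 with the shared percentage, 0.12 with transcript length and -0.28 with the Input level.

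**Figure D5:**
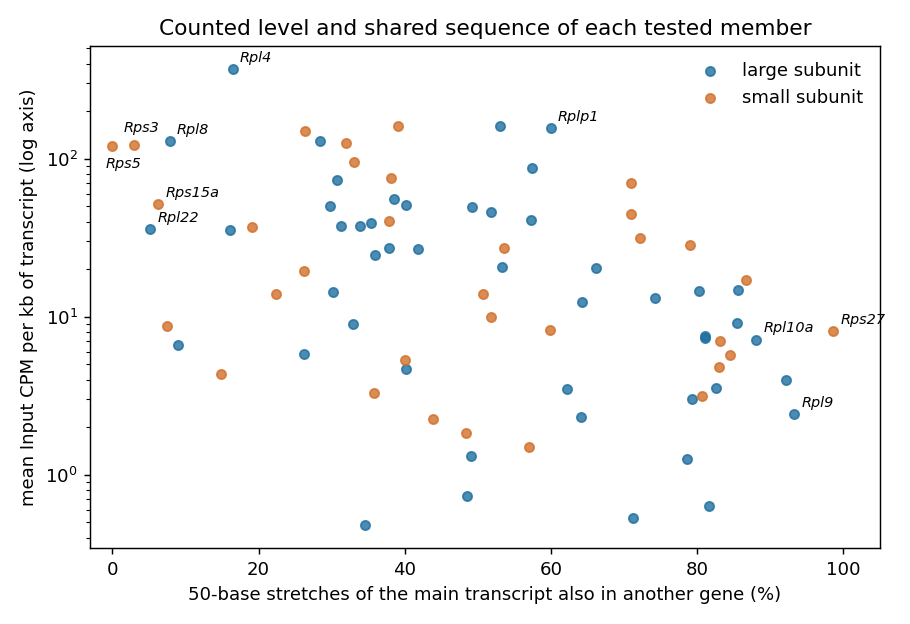
Each point is a tested member, with the percentage of 50-base stretches of its main transcript that also occur in another gene on the x axis and its mean Input level in CPM per kb of transcript on a log y axis. Blue is the large and orange the small subunit. Levels fall towards the right, from Rpl4 at 371 CPM per kb to members such as Rpl9 and Rps27, with over 90% shared.

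The medians of the subunits lay close together. In the large subunit 41 of 48 tested members had a negative fold, 2 were called lower and the median was -0.49. In the small subunit 30 of 33 had a negative fold, 1 was called lower and the median was -0.62. The large minus small difference of 0.13 ranged from 0.00398 to 0.143 when single libraries were left out, with the lowest value without Input 4. Every IP library was below every Input library in 13 large-subunit and 10 small-subunit members. The summed CPM of the large over the small subunit was 1.24, 1.32 and 1.48 in IP 1, 3 and 4 and 1.35, 1.27, 1.29 and 1.35 in Input, so the IP values straddled those of Input.

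Genes that work with the ribosomal proteins were read from lists chosen by function. For these lists and those below, the shares of all tested genes are as follows. The edgeR test called 2.16% lower and 3.64% higher. At an unadjusted p under 0.05, 9.40% were lower and 13.3% higher. DESeq2 called 5.54% lower and 8.03% higher, and edgeR without library IP 1 called 9.55% lower and 12.5% higher. Of 20 translation factors and other genes known for TOP messages, none was called by edgeR (4 lower and 1 higher at an unadjusted p under 0.05; DESeq2 called 2 lower, and edgeR without library IP 1 called 4 lower), and the median log2 fold was -0.27. Gas5, a host of small nucleolar RNAs, had a log2 fold of -1.47 ± 0.41 (edgeR adjusted p = 0.0659) and the poly(A)-binding protein Pabpc1 one of -0.61 ± 0.18 (edgeR adjusted p = 0.0726), each with every IP library below every Input library. Of the 4 ribosomal proteins under other names none was called by edgeR or DESeq2 or reached an unadjusted p under 0.05. Their median was -0.36, with Rpl36al at -0.39 ± 0.69 (edgeR adjusted p = 0.796). The 3 tested pseudogene copies with names had a median of -0.31, and none was called by edgeR or DESeq2 or reached an unadjusted p under 0.05.

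The genes of the machinery that makes ribosomes were spread around 0. Of 40 ribosome biogenesis genes none was called by edgeR (2 lower and 2 higher at an unadjusted p under 0.05; DESeq2 called 1 higher, and edgeR without library IP 1 called 2 lower), 26 had a positive fold and the median was 0.13. Nop14 (0.73 ± 0.24, edgeR adjusted p = 0.108) and Polr1a (0.90 ± 0.33, edgeR adjusted p = 0.136) had the lowest p. Of 18 genes of mTOR signalling and control of these messages none was called by edgeR (2 higher at an unadjusted p under 0.05; DESeq2 called 1 higher, and edgeR without library IP 1 called 2 higher and 2 lower), and the median was 0.12. Larp1, which binds TOP messages, was at 175, 145 and 171 CPM in IP and 97.4, 116, 111 and 107 CPM in Input, without overlap, at a log2 fold of 0.60 ± 0.17 (edgeR adjusted p = 0.0699). Tsc2, an upstream brake on mTOR, was at 365 CPM in IP 1 and between 85.1 and 95.6 CPM in the other 6 libraries.

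The proteins of the mitochondrial ribosome are the nearest counterpart. Of 75 tested genes none was called by edgeR (2 lower and 4 higher at an unadjusted p under 0.05; DESeq2 called 1 lower and 1 higher, and edgeR without library IP 1 called 1 lower and 2 higher), 36 had a positive fold and the median was -0.03. Every IP library was below every Input library in 5 of them (6.67%), against 28.4% of the cytosolic members and 10.4% of all genes. Mrps15 had a log2 fold of -0.78 ± 0.25 (edgeR adjusted p = 0.0971) and Mrps31 one of 0.72 ± 0.23 (edgeR adjusted p = 0.0982). The difference between the cytosolic and the mitochondrial genes was not tested.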

How the data were processed

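RNA was counted in 3 IP and 4 Input libraries. The submitters' processing notes name STAR 2.0.0e, HTSeq and the build mm10. Which settings, strand use, annotation and kit were used is not given in the sources used here. The deposited values are whole-number read counts per gene symbol, with no normalization by the authors, per the labels' tool names and the values themselves. Lines that name no gene (outside genes, ambiguous or multiply aligned reads) made up 40.1% to 52.1% of a library's counted records. They stayed out of library sizes and tests. Reads in more than 1 gene made up 1.51% to 2.01% of these records in the IP and 9.33% to 12.9% in the Input libraries.

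The filter was filterByExpr with a minimum count of 10 and a minimum total of 15 (edgeR 4.0.16, R 4.3.3), which left 17375 genes. Libraries were scaled with TMM, and IP was compared with Input by edgeR's quasi-likelihood test (robust) with group as the only term and Benjamini-Hochberg adjustment over all tested genes, at 0.05. Alternatives were DESeq2 1.42.0, limma 3.58.1 (voom), other scalings, no filter, a length and GC offset, a replicate block and leaving out each library. The script was tested on simulated data. The labels put same-numbered IP and Input libraries on 1 lane, and this gives the pairing. Their deviations from the group means correlated at 0.03, 0.04 and 0.03 for numbers 1, 3 and 4. Input 2 has no IP partner, so with the replicate block the folds rest on numbers 1, 3 and 4. That fit has less left to estimate the spread from, so a call lost there says little about the pairing.

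All 84 symbols matched a gene of GENCODE M21 (GRCm38, the assembly of mm10), which gave positions, main transcripts and the 50-base stretches that transcripts of different genes share; 63 had an entry in the RefSeq promoter table. Values per library were given for Rpl10a, Rpsa, the stalk genes, called members, the 6 largest folds in each direction, the 4 highest levels and the copies. The values of 1 of these members are not reported here, and it is left out of the plot of folds by gene. The members and gene lists were chosen with earlier results of these data known. Intervals of counting error are not given, as reads without molecular identifiers are not independent molecules.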

Additional observations from a re-analysis of the deposited data

Results flagged for a closer look

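Among the named members and the sums over members tested for a library far from its group (4 Input libraries, Dixon's criterion), 2 of 23 groups stood out, where chance gives about 1 in 20. Rps3 was lowest in Input 4, at 171 CPM, a gap of 0.877 of the group's range below the other Input libraries. Rps4l was highest in Input 2, at 8.67 CPM, a gap of 0.842 of the range above the others.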

How the results depend on the processing

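The members' median log2 fold, its value in each subunit and the ratio of summed CPM were negative under every alternative run. Leaving out single libraries moved the median over -0.75 to -0.48, the large-subunit median over -0.74 to -0.42, the small-subunit median over -0.78 to -0.50, the log2 ratio of sums over -0.83 to -0.39, and the large minus small difference over 0.00398 (without Input 4) to 0.143. The number of members called lower, 3 as reported, was 13 with DESeq2, 1 with limma voom, 0 with the replicate block, 14 with the length and GC offset and 4 with that offset and the replicate block together (0.894% of all genes in that fit). With scaling by total counts 2 were called lower, without Rpl4 (1.80% of all genes). Members called higher, 0 as reported, were 1 (Rps27l) with DESeq2 and 1 with the length and GC offset. Without single libraries, members called lower ranged over 0 to 8 and members called higher over 0 to 2. The count was 8 without IP 1 (9.55% of all genes called lower), 8 without IP 3 (1.98% of all genes), and 0 without IP 4 or any 1 Input library, settings in which 16 to 30 of all genes were called lower. Signs changed for 3 of the named members, all close to 0. Rpl10a had -0.0378 with the replicate block, -0.0199 with the length and GC offset, -0.16 with both, and between -0.17 and 0.41 without single libraries (-0.0157 without Input 1, -0.0716 without Input 2 and -0.17 without IP 4). Rplp0 had 0.00348 with scaling by total counts and between -0.18 and 0.0704 without single libraries, and Rpl8 between -0.40 and 0.0295, with the highest value of both without IP 1. The cause was not tested. A limit to members under 50% shared sequence was added after the data were seen, and gave a median of -0.62. Depth limits the thinly counted members, such as Rpl26, with a standard error of 1.179 on the log2 scale.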
